A study of Capra hircus with 6 samples.

Results

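The genes examined here encode the factors that start, carry forward and end the making of protein on the ribosome. They were taken by symbol from 2 deposited expression tables: every symbol that begins with EIF1 to EIF6 or with EEF1 or EEF2, plus ETF1, GSPT1 and GSPT2, leaving out the eIF2 kinases, whose symbols begin with EIF2AK. The rule found 59 genes among 16262 rows that carry a gene symbol. It read no measured value. The RNA came from mesenchymal stem cells of goat fat (Capra hircus), stromal cells that can form fat cells, and every library carries the treatment label adipogenic differentiation. One group of 3 libraries has the genotype overexpressing TAZ. TAZ, encoded by WWTR1, is a coactivator of transcription that the Hippo pathway restrains. The control group of 3 libraries has the genotype WT. The series title also names TNF-α, but no library label names a cytokine. The labels give no vector for the controls, no promoter for the TAZ construct, no day of differentiation and no count of cell lines or animals. They do not say that the replicates are separate cultures, so p-values here measure only how far these libraries spread, and that spread may be technical.

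Translation starts when a small ribosomal subunit, loaded with initiator tRNA by eIF2 and held open by eIF1, eIF1A and eIF3, is brought to the capped end of a message by the eIF4 factors and scans to the start codon. eEF1A then delivers each charged tRNA, the eEF1B complex recharges eEF1A with GTP, eEF2 moves the ribosome along, and eRF1 (ETF1) with eRF3 (GSPT1 or GSPT2) ends the chain. Messages of the elongation factors, like those of ribosomal proteins, carry a pyrimidine tract at the 5′ end through which the mTOR pathway sets how well they are translated. The abundance measured here is that of the messages and not of the proteins or of protein synthesis.

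Values are FPKM, fragments per kilobase of gene scaled to the size of the library, as the authors deposited them, with mean ± SD over n = 3 libraries in each group. Library totals were worked out from the steps between low FPKM values. They came out at 17035481 to 18852822 fragments in the TAZ group and 16935698 to 17483995 in the control group. The steps were of 0.5 fragments, so totals and fragment numbers may all be too low by the same factor. Log2 fold changes are TAZ overexpression minus control of log2(FPKM + 1), and the added 1 makes the change of low genes look smaller. A gene is said to have risen or fallen where its limma p, adjusted by the Benjamini-Hochberg method over 10750 genes, was under 0.05. WWTR1 stood at 84.6, 118.1 and 84.2 FPKM in the TAZ libraries and at 30.2, 29.9 and 35.9 FPKM in the controls. All 11 stromal markers examined were above 1 FPKM on average in these cells. Of the 6 fat cell markers only CEBPA was, and the list summed to 1.18 to 1.497 FPKM in TAZ libraries and to 2.41 to 2.54 FPKM in controls. PPARG, the receptor gene that drives the making of fat cells, was near 0 in both groups, with means of 0.0834 FPKM with TAZ and 0.058 FPKM in controls. PTPRC, the pan-leukocyte marker, and KDR, an endothelial receptor gene, were at 0 fragments in all 6 libraries. Of the 4 leukocyte markers CD14 and CD68, which other cells can also express, exceeded 1 FPKM. CD14 averaged 24.2 ± 0.421 FPKM in TAZ libraries and 9.58 ± 1.38 FPKM in controls. CD68 averaged 2.86 ± 0.333 FPKM with TAZ and 4.53 ± 0.437 FPKM in controls. CD3E, a T cell gene below the filter, averaged 0.0769 ± 0.0675 FPKM with TAZ and 0.598 ± 0.0733 FPKM in controls. The list thus held values higher and lower with TAZ, and the part of these markers in the results was not tested. In these bulk libraries, fewer cells of a type and less RNA per cell cannot be told apart.

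Most translation factor genes were slightly lower in the TAZ libraries, and few changed by much. All 59 passed the filter on low values. Of them 2 rose, EIF5B and EIF4E3, 15 fell and 42 did not pass. The called share was 28.8%, against 37.9% of all tested genes. Among the members 25.4% fell, against 22.1% of all tested genes, and 3.4% rose, against 15.7%. The share of members that fell is near that of all genes. The log2 fold change was below 0 for 44 of the 59 members (74.6%) and for 57.1% of all tested genes, with medians of -0.13 and -0.05. TAZ and control values stood fully apart for 25 members (42.4%), against 48.4% of all tested genes. Apart from EEF1A2, the called members lay between 0.683 and 1.48 times the control level.

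**Figure D1:**
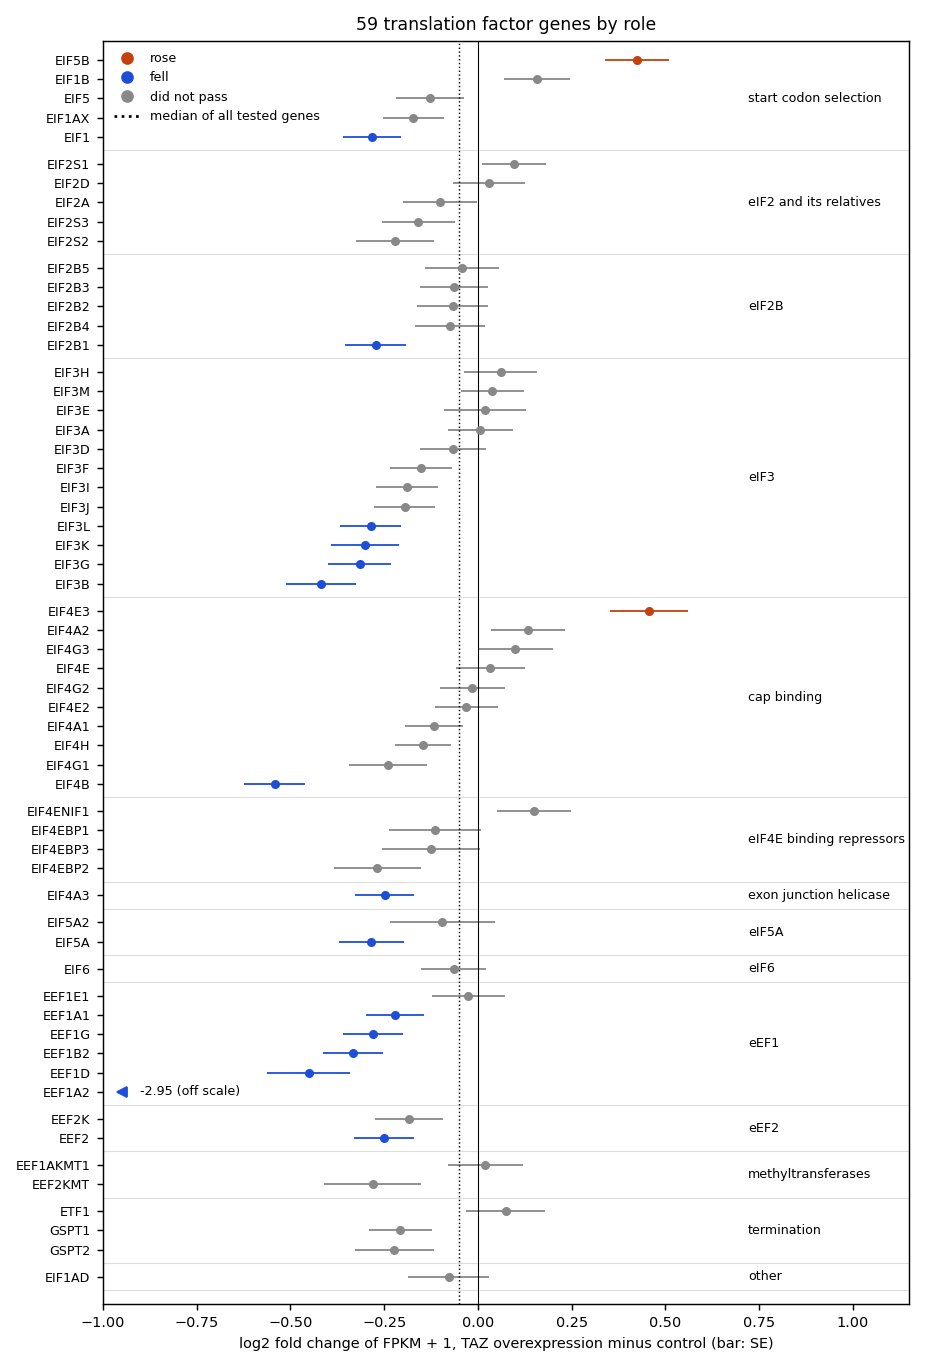
Log2 fold changes of the 59 genes with their standard errors (TAZ overexpression minus control, on the log2(FPKM + 1) scale), grouped by role. Most points lie left of 0, 15 in blue fell and 2 in orange rose, and EEF1A2 at -2.95 lies off the scale.

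How many members fell depended on the scaling and on single libraries. Scaling by the median ratio between libraries left 6 that fell, EEF1A2, EEF1B2, EEF1D, EIF3B, EIF3G and EIF4B, and leaving out TAZ replicate 1 left 7. Under median-ratio scaling 10.2% of members fell, against 16.6% of all tested genes. Without TAZ replicate 1 the share of members was 11.9%, also smaller than that of all tested genes. Under some other alternatives the share of members was the larger, as without TAZ replicate 2 (20.3%, against 18.1%). With no filter it was 23.7%, against 14.3% of 16021 genes. That wider set adds genes of low level but no member, so these 2 shares are not alike in make-up. EEF1A2, EEF1B2, EEF1D, EIF3B, EIF4B, EIF5B and EIF4E3 kept their calls and directions under each alternative in which they were tested, which for EIF4E3 excludes the filter at a mean of 5 FPKM that removed it. The other 10 calls were lost under at least 1 alternative. Quantile normalization put EEF1A1, EEF2, EIF5A and EEF1G, the 4 most abundant of them, at log2 fold changes of -0.14, -0.04, -0.07 and -0.06. All 17 called members kept their sign under every alternative in which they were tested. Most alternatives could not have turned it. The groups of these genes did not overlap, so leaving out a library or changing the pseudocount keeps the sign. The filters, the trend and the block leave the fold change as it was, so mainly the other scalings bear on the sign.

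**Figure D2:**
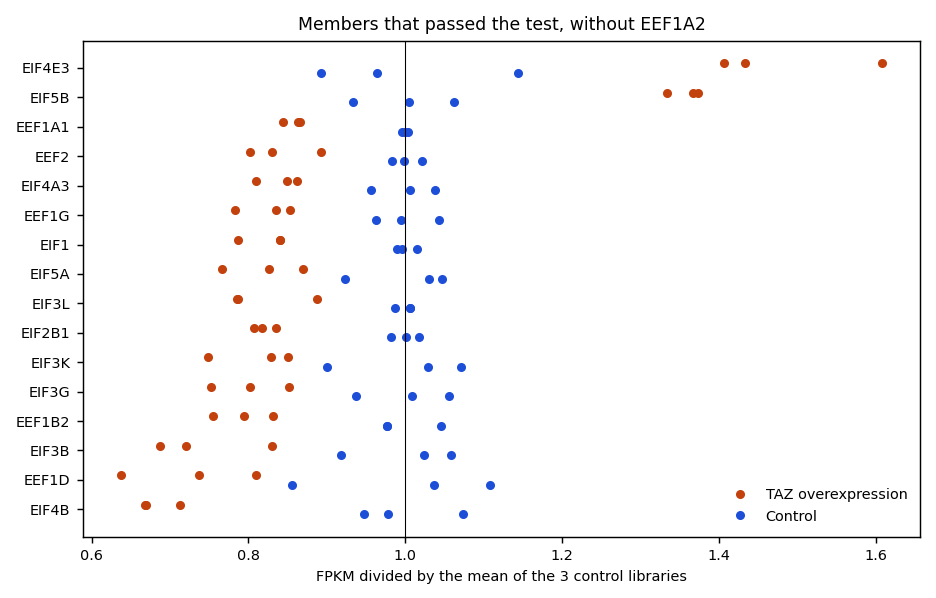
FPKM of each library divided by the mean of the 3 control libraries, for the called members other than EEF1A2, with TAZ libraries in orange above control libraries in blue. The groups of points do not overlap for any of these genes, and the TAZ values of EIF5B and EIF4E3 are the only ones to the right of the control values.

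EEF1A2 had the largest change of the 59 genes. It encodes the second form of the tRNA-delivering factor eEF1A, which in mammals takes over from EEF1A1 in adult skeletal muscle, heart and neurons. It stood at 7.90, 6.33 and 9.14 FPKM in the TAZ libraries, against 66.6, 70.2 and 62.3 FPKM in the controls. Every TAZ library was far below every control library. Group means were 7.79 ± 1.41 FPKM with TAZ and 66.4 ± 3.97 FPKM in controls, 0.117 times the control level (log2 fold change -2.95, SE 0.11, adjusted p = 2.45e-10). The fall rests on 238.5 to 2376.5 fragments per library, and its log2 fold change ran from -3.10 to -2.83 over the alternatives.

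EEF1A1, which encodes the form of eEF1A found in nearly all cells, was the most abundant member in every library. It stood at 1417, 1386 and 1421 FPKM with TAZ, against 1646, 1641 and 1635 FPKM in controls. The groups did not overlap, with means of 1408 ± 19.2 and 1641 ± 5.71 FPKM in TAZ and control libraries, 0.858 times the control level (log2 fold change -0.22, SE 0.08, adjusted p = 0.0397). That call was lost when any 1 of the 6 libraries was left out (adjusted p = 0.0528 to 0.125) and under median-ratio scaling (adjusted p = 0.171).

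The make-up of the eEF1A pool differed between the groups on the FPKM scale, which is per length. EEF1A2 made up 0.555%, 0.455% and 0.639% of the summed EEF1A1 and EEF1A2 FPKM in TAZ libraries, against 3.89%, 4.10% and 3.67% in controls. The means were 0.549% ± 0.092 with TAZ and 3.89% ± 0.217 in controls, a difference of -3.34 percentage points. An exact two-sided permutation test over the 6 libraries gave p = 0.1, the smallest it can give with 3 libraries against 3. EEF1A1 was 184.6 times as high as EEF1A2 in TAZ libraries and 24.8 times as high in controls, so it was the main form in both groups. These ratios and shares depend on gene lengths, which came out at 4860 bases for EEF1A1 and 1998 for EEF1A2. As a share of fragments EEF1A2 made up 0.227% with TAZ and 1.64% in controls. The paralogs are similar in sequence and EEF1A1 is known to have many processed pseudogene copies. The counting of reads that fit several places is not stated, so the split is uncertain to that extent.

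**Figure D3:**
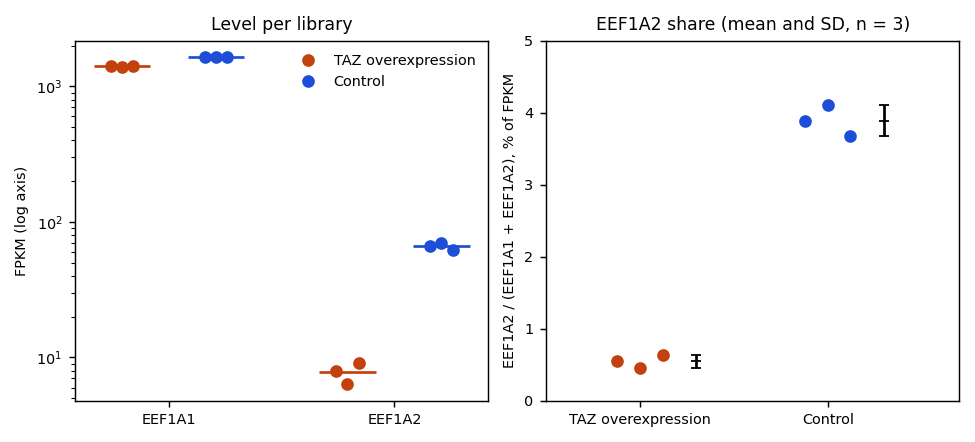
Left, FPKM of EEF1A1 and EEF1A2 in each library on a log axis, with lines at the group means. Right, the share of EEF1A2 in the summed FPKM of both genes, with mean and SD beside the points: the 3 TAZ libraries lie between 0.455% and 0.639%, and the 3 controls between 3.67% and 4.10%.

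Among the tissues that use EEF1A2, markers of skeletal muscle and neurons were low in both groups, and heart markers were not examined. The 6 skeletal muscle markers measured summed to 0.247 to 0.366 FPKM in TAZ libraries and to 0.407 to 0.484 FPKM in controls, most of it from DES (desmin). MYOG, CKM and MYL1 had no fragment in any control library, and each had 0.5 fragments over the TAZ libraries. ACTA1 summed to 3.0 fragments in controls and 1.0 with TAZ, and MYF5 to 0.5 and 2.0. The 7 neuron markers measured summed to 4.06 to 5.54 FPKM with TAZ and to 5.10 to 6.04 FPKM in controls. Among them SNAP25 and STMN2 exceeded 1 FPKM on average. SNAP25, a vesicle fusion gene, stood at 4.15 ± 0.888 FPKM with TAZ and 3.35 ± 0.397 FPKM in controls. STMN2, a microtubule regulator, was lower with TAZ at 0.742 ± 0.214 FPKM, against 2.10 ± 0.173 FPKM in controls. The part of either marker list in the EEF1A2 result was not tested.

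Each of the 3 subunit genes of the exchange complex that reloads eEF1A fell. Among all tested genes 22.1% fell, and among those at 100 FPKM or more 39.0% did. EEF1B2, which encodes the catalytic beta subunit, stood at 335.6, 369.4 and 353.1 FPKM with TAZ and at 434.3, 464.8 and 434.2 FPKM in controls (0.794 times, log2 fold change -0.33, SE 0.08, adjusted p = 0.00531). EEF1D, the delta exchange subunit, stood at 69.5, 88.3 and 80.3 FPKM with TAZ, against 113.0, 120.8 and 93.2 FPKM in controls. Its libraries spread more than those of the other subunits and the closest ones of the groups were near each other (0.728 times, log2 fold change -0.45, adjusted p = 0.0064). EEF1G, the scaffold subunit, averaged 705.0 ± 31.6 FPKM with TAZ and 856.1 ± 34.7 FPKM in controls (adjusted p = 0.0154). The call of EEF1G was lost without TAZ replicate 1 (adjusted p = 0.081), under median-ratio scaling (0.079) and with quantile normalization (0.423). The ratio of EEF1G to EEF1B2 was 1.999 ± 0.0234 with TAZ and 1.93 ± 0.0323 in controls. EEF1E1, whose product also belongs to the tRNA synthetase complex, averaged 14.0 ± 0.777 and 14.3 ± 1.41 FPKM in TAZ and control libraries and did not pass (adjusted p = 0.863).

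EEF2, the translocation factor, was lower by about the same ratio as EEF1A1. It stood at 834.4, 897.4 and 807.3 FPKM with TAZ, against 1004, 988.4 and 1027 FPKM in controls, with no overlap (0.841 times, log2 fold change -0.25, SE 0.08, adjusted p = 0.0263). The call was lost without TAZ replicate 1 or 3 or control replicate 1 or 3 (adjusted p = 0.0617 to 0.114) and under median-ratio scaling (0.113). Quantile normalization also ended it, with a log2 fold change of -0.04 (adjusted p = 0.696). The ratio of EEF2 to EEF1A1 was 0.602 ± 0.0412 with TAZ and 0.614 ± 0.0134 in controls, a difference within the spread of the libraries. EEF2K, the kinase that inactivates eEF2, averaged 14.1 ± 0.927 FPKM with TAZ and 16.1 ± 0.908 FPKM in controls. Its groups did not overlap, yet it did not pass (adjusted p = 0.131). Among the lysine methyltransferases of the elongation factors, EEF1AKMT1 was at 3.24 ± 0.139 FPKM with TAZ and 3.18 ± 0.334 FPKM in controls. EEF2KMT was at 5.10 ± 0.546 FPKM with TAZ and 6.47 ± 1.35 FPKM in controls, and neither passed.

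The 6 eEF1 genes summed to 2567 ± 47.0 FPKM with TAZ and 3131 ± 70.9 FPKM in controls, a ratio of 0.82. All 59 members together summed to 7533, 7815 and 7713 FPKM in the TAZ libraries, against 8899, 9092 and 8810 FPKM in controls, and so made up 1.71% to 1.78% of all FPKM in TAZ libraries and 1.94% to 2.01% in controls. Without EEF1A1 the ratio of the sums was 0.861, next to 0.86 with it.

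Of the 5 genes for factors that pick the start codon and join the subunits there, 1 rose and 1 fell. Among all tested genes 15.7% rose and 22.1% fell, so these counts do not set the group apart. EIF5B, which encodes the GTPase that joins the large ribosomal subunit, rose. It stood at 27.4, 26.6 and 27.3 FPKM in TAZ libraries, against 18.6, 20.04 and 21.2 FPKM in controls. The TAZ libraries lay close together and above each control (1.36 times, log2 fold change 0.43, SE 0.09, adjusted p = 0.00167, and 0.00884 at most with 1 library left out). EIF1, which keeps the scanning ribosome from stopping at wrong codons, fell to 323.4, 302.9 and 323.2 FPKM with TAZ, against 383.1, 390.8 and 380.9 FPKM in controls (0.822 times, log2 fold change -0.28, SE 0.08, adjusted p = 0.011). Without TAZ replicate 2 EIF1 did not pass (adjusted p = 0.0519), nor did it under median-ratio scaling (0.0523). EIF1B, a close paralog of EIF1, averaged 49.8 ± 2.20 FPKM with TAZ and 44.6 ± 3.71 FPKM in controls and did not pass (adjusted p = 0.178). EIF1AX, its partner in scanning, was at 33.7 ± 0.789 and 38.1 ± 1.77 FPKM, and EIF5, the GTPase activator of eIF2, at 45.9 ± 4.04 and 50.2 ± 3.45 FPKM in TAZ and control libraries. Neither passed.

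None of the 5 genes of eIF2 and its relatives passed. EIF2S1, the alpha subunit that stress kinases phosphorylate, stood at 23.8, 22.5 and 23.3 FPKM with TAZ, against 21.5, 20.5 and 23.0 FPKM in controls, and the groups overlapped (log2 fold change 0.10, SE 0.09, adjusted p = 0.398). EIF2S2 (beta) averaged 38.2 ± 2.63 FPKM with TAZ and 44.9 ± 6.03 FPKM in controls. EIF2S3 (gamma) averaged 47.6 ± 4.01 and 53.3 ± 5.33 FPKM in those groups. Levels per length were thus not equal among the 3 subunits, with EIF2S1 the lowest in both groups. EIF2A and EIF2D, which can bring initiator tRNA to the ribosome without eIF2, had fold changes of -0.10 and 0.03 on the log2 scale.

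Of the 5 subunits of eIF2B, the exchange factor that recharges eIF2, 1 fell, a smaller share than the 22.1% of all tested genes. EIF2B1, the regulatory alpha subunit, stood at 18.7, 18.3 and 18.1 FPKM with TAZ, against 22.0, 22.4 and 22.8 FPKM in controls (0.82 times, log2 fold change -0.27, SE 0.08, adjusted p = 0.0184). The values of each group lay close together. Even so, the call was lost without TAZ replicate 2 or 3 or control replicate 2 (adjusted p = 0.0507 to 0.0776) and under median-ratio scaling (0.0526). The other subunits, EIF2B2 to EIF2B5, had log2 fold changes from -0.07 to -0.04, and each overlapped between the groups. EIF2B3 and EIF2B4 were the least abundant, at 7.97 ± 0.449 and 10.1 ± 0.669 FPKM with TAZ and 8.38 ± 0.22 and 10.7 ± 0.633 FPKM in controls.

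The complex eIF3 is the scaffold that links the small ribosomal subunit to the cap complex. Of its 12 genes measured 4 fell, 0 rose and 8 did not pass, so that 33.3% fell, against 22.1% of all tested genes. EIF3B, a core subunit, had the largest change. It stood at 52.3, 63.1 and 54.8 FPKM with TAZ, against 80.4, 77.8 and 69.8 FPKM in controls (0.746 times, log2 fold change -0.42, SE 0.09, adjusted p = 0.00355). EIF3G, which binds next to EIF3B and EIF3I, stood at 97.6, 110.6 and 104.1 FPKM with TAZ and at 137.0, 130.9 and 121.7 FPKM in controls (0.802 times, adjusted p = 0.0101), a call lost without TAZ replicate 1 (adjusted p = 0.0532). EIF3L stood at 85.8, 97.0 and 86.0 FPKM with TAZ and at 109.9, 110.0 and 107.9 FPKM in controls (0.82 times, adjusted p = 0.0144), a call lost without TAZ replicate 1 or 3 (adjusted p = 0.0649 to 0.0695). EIF3K, its neighbour in the complex, averaged 145.5 ± 9.65 FPKM with TAZ and 179.8 ± 16.1 FPKM in controls (adjusted p = 0.019). The call of EIF3K was lost without TAZ replicate 1 or control replicate 1 or 2 (adjusted p = 0.0619 to 0.088). Under median-ratio scaling EIF3L and EIF3K did not pass (adjusted p = 0.0584 and 0.0751).

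EIF3I, EIF3J and EIF3F were lower in every TAZ library than in every control library without passing (adjusted p = 0.0885, 0.0791 and 0.171). By contrast EIF3A, the largest core subunit, averaged 46.0 ± 1.78 FPKM with TAZ and 45.9 ± 3.90 FPKM in controls. EIF3E was at 102.0 ± 8.93 and 101.1 ± 14.1 FPKM, EIF3H at 120.4 ± 11.3 and 115.4 ± 11.1 FPKM, and EIF3M at 81.2 ± 3.18 and 79.1 ± 5.32 FPKM in TAZ and control libraries. The sign of each of these 4 changed when some single library was left out, so no direction is given for them. EIF3D, a cap-binding subunit, was at 105.2 ± 7.37 and 110.3 ± 8.59 FPKM and did not pass. The levels per length ran from 24.6 FPKM (EIF3J) to 153.3 FPKM (EIF3I) with TAZ, and from 28.3 FPKM (EIF3J) to 179.8 FPKM (EIF3K) in controls. EIF3J is the loosely bound subunit of the complex. The sum over the 12 genes was 1110 ± 32.0 FPKM with TAZ and 1240 ± 50.4 FPKM in controls.

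**Figure D4:**
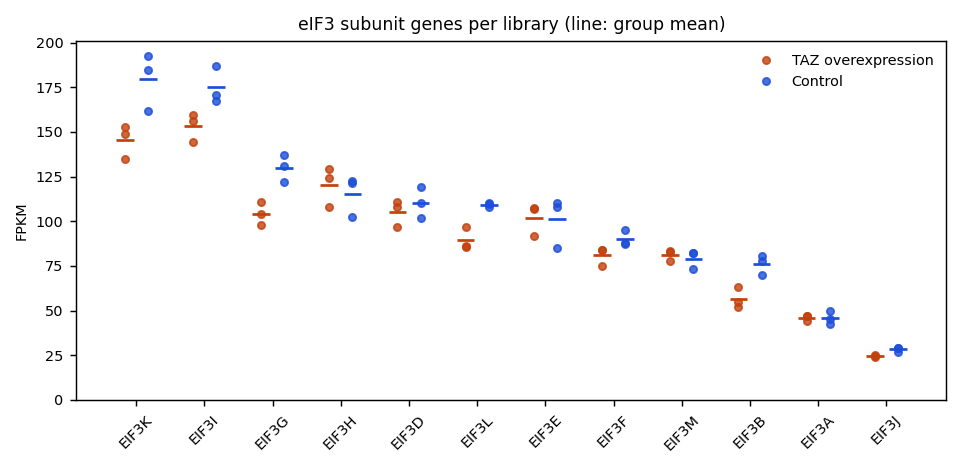
FPKM of the 12 eIF3 subunit genes in each library (TAZ overexpression left, control right, lines at the group means), ordered by the control mean. Values of EIF3B, EIF3G, EIF3K and EIF3L lie apart between the groups, while those of EIF3A, EIF3E, EIF3H and EIF3M overlap.

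In the cap-binding group the clearest fall was that of EIF4B, the cofactor that stimulates the helicase eIF4A and is a target of S6 kinase. EIF4B stood at 83.0, 77.9 and 77.8 FPKM with TAZ, against 114.0, 110.4 and 125.0 FPKM in controls. It had no overlap and a mean of 0.683 times the control level (log2 fold change -0.54, SE 0.08, adjusted p = 0.000189). EIF4E3, an atypical cap-binding paralog of EIF4E, rose. It was low, at 5.27, 4.70 and 4.61 FPKM with TAZ and 3.16, 2.92 and 3.75 FPKM in controls, from 178.5 to 323.5 fragments per library (1.48 times, log2 fold change 0.46, SE 0.10, adjusted p = 0.00402).

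The core cap complex did not pass the test in any of its parts. EIF4E, the cap-binding protein, stood at 33.8, 30.7 and 34.0 FPKM with TAZ, against 31.0, 29.9 and 35.6 FPKM in controls (log2 fold change 0.03, SE 0.09, adjusted p = 0.812), and its sign turned without control replicate 2. EIF4A1, the main helicase, stood at 453.7, 486.7 and 470.6 FPKM with TAZ, against 511.6, 518.2 and 500.5 FPKM in controls. It did not overlap between the groups and did not pass (log2 fold change -0.12, SE 0.08, adjusted p = 0.252). EIF4G1, the scaffold, stood at 103.3, 127.4 and 99.2 FPKM with TAZ, against 139.1, 119.0 and 130.4 FPKM in controls. The second TAZ library lay among the controls, and EIF4G1 passed as lower only when that library was left out (adjusted p = 0.0839 with all 6). Of the others, EIF4H, which resembles EIF4B in action, was at 168.0 ± 2.38 and 186.1 ± 2.70 FPKM in TAZ and control libraries with no overlap (adjusted p = 0.14). EIF4G2, which encodes a scaffold that lacks the EIF4E site, averaged 319.0 ± 17.6 and 322.7 ± 27.4 FPKM, more than EIF4G1 in each group. EIF4A2, EIF4G3 and EIF4E2 had log2 fold changes of 0.13, 0.10 and -0.03.

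The repressors that sequester EIF4E did not pass. EIF4EBP1, the best known of the mTOR-controlled repressors, stood at 163.4, 188.2 and 209.1 FPKM with TAZ, against 195.1, 241.8 and 173.0 FPKM in controls, and the groups overlapped (log2 fold change -0.11, SE 0.12, adjusted p = 0.492). Its FPKM was 5.71 ± 0.757 times that of EIF4E with TAZ and 6.42 ± 1.62 times in controls. The gene length behind its FPKM came out at only 357 bases, against 7079 bases for EIF4EBP2, so these levels rest on unlike gene models. EIF4EBP2 averaged 27.5 ± 2.88 FPKM with TAZ and 33.5 ± 5.13 FPKM in controls (adjusted p = 0.0854). EIF4EBP3 was at 4.19 ± 0.965 and 4.61 ± 0.521 FPKM from 35.5 to 60 fragments per library. EIF4ENIF1, the carrier of EIF4E into the nucleus, was at 8.90 ± 0.697 and 7.93 ± 0.576 FPKM in TAZ and control libraries.

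EIF4A3 shares the helicase fold of EIF4A1 but works in the exon junction complex, which marks spliced messages. It stood at 70.9, 74.4 and 75.5 FPKM with TAZ, against 90.9, 88.1 and 83.8 FPKM in controls (0.84 times, adjusted p = 0.0247). The call was lost when any single library other than control replicate 3 was left out (adjusted p = 0.0541 to 0.102) and under median-ratio scaling (0.0947). EIF1AD, which the rule takes in by its symbol, was at 12.6 ± 1.68 FPKM with TAZ and 13.3 ± 1.154 FPKM in controls and did not pass.

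EIF5A encodes the hypusine-carrying factor that helps the ribosome past proline-rich stretches and during termination. It stood at 646.7, 734.2 and 697.5 FPKM with TAZ, against 869.4, 884.2 and 779.0 FPKM in controls, with no overlap (0.821 times, log2 fold change -0.28, SE 0.09, adjusted p = 0.0211). The call was lost without TAZ replicate 1 or control replicate 1 or 2 (adjusted p = 0.0546 to 0.103), under median-ratio scaling (0.093) and with quantile normalization (0.439). EIF5A2, its scarce paralog, was at 3.44 ± 0.359 and 3.81 ± 1.10 FPKM in TAZ and control libraries. EIF6, which keeps the ribosomal subunits apart, was at 95.3 ± 6.63 FPKM with TAZ and 99.7 ± 6.404 FPKM in controls. Neither passed.

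No termination factor gene passed. ETF1, whose product reads the stop codon, stood at 42.8, 40.1 and 37.6 FPKM with TAZ, against 38.0, 32.9 and 44.0 FPKM in controls, and the groups overlapped (log2 fold change 0.07, SE 0.11, adjusted p = 0.614). GSPT1, the GTPase partner of ETF1, stood at 21.7, 22.3 and 21.0 FPKM with TAZ, against 25.8, 23.7 and 26.1 FPKM in controls. It had no overlap but missed the threshold (log2 fold change -0.21, SE 0.08, adjusted p = 0.0695). GSPT2, its retrogene paralog, was at 2.22 ± 0.263 and 2.76 ± 0.314 FPKM in TAZ and control libraries (adjusted p = 0.113).

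Paralog shares were compared for 8 pairs, each as the share of the form of lower FPKM in the summed FPKM of the pair. EIF1B made up 13.4%, 13.6% and 13.8% of EIF1 plus EIF1B with TAZ, against 9.61%, 10.97% and 10.54% in controls. EIF4E3 made up 13.5%, 13.3% and 11.9% of EIF4E plus EIF4E3 with TAZ, against 9.25%, 8.92% and 9.53% in controls. In these pairs and in the eEF1A pair the groups did not overlap, with an exact permutation p of 0.1 each, the smallest possible, and 0.267 when adjusted over the 8 pairs. The shares of EIF4A2, EIF4G3, EIF5A2, GSPT2 and EIF4EBP2 in their pairs overlapped between the groups. EIF4EBP2 was the lesser form by FPKM only, and made up 74.4% and 76.3% of the fragments of its pair in TAZ and control libraries. With 3 libraries a group, none of these share differences can pass a threshold of 0.05.

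The members were abundant genes, and abundant genes as a whole were lower with TAZ. Their median level was 46.0 FPKM over the 6 libraries, against 9.93 FPKM for all tested genes. The 15 members that fell had a median control level of 129.8 FPKM, and the 42 that did not pass had 32.8 FPKM. Across the 59 members Spearman's rho between control level and log2 fold change was -0.44, and across all tested genes it was -0.24, given as descriptions over genes that share libraries and whose fold change is computed from the same control values. At 100 FPKM or more, a limit chosen after the values were seen, 8 of 17 members fell (47.1%) and 268 of 687 genes in all did (39.0%), with median log2 fold changes of -0.22 and -0.18. Gene length, as recovered from the FPKM steps, had a median of 1969 bases for the members that fell and 2422 for those that did not pass. Its rho with the log2 fold change was 0.17 over the members and 0.16 over all tested genes.

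**Figure D5:**
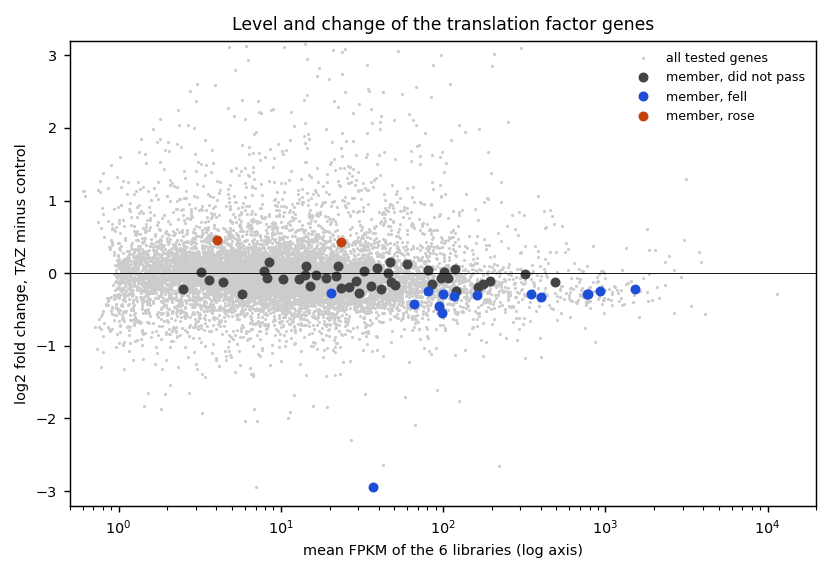
Mean FPKM of the 6 libraries (log axis) against log2 fold change (TAZ minus control) for all tested genes in grey and the 59 members in colour. The members sit to the abundant side, where the grey cloud itself leans below 0, and EEF1A2 lies far below the other members; 62 genes with changes beyond 3.2 on the log2 scale are outside the axis.

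Replicate libraries of a group differed in a graded way among the members. The median coefficient of variation was 6.34% over the TAZ libraries and 7.27% over the controls. Each of the 3 TAZ libraries was the highest of its group for 17 to 22 members and the lowest for 15 to 23. Among controls, replicate 1 was the highest for 12 members, and replicates 2 and 3 for 24 and 23. TAZ replicate 2 and control replicate 1 were the highest of their groups for EIF4G1 and the lowest for EIF3E and EIF3H.

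Genes that act on or with these factors were examined from 7 lists of regulators and partners. Of 44 tested genes on these lists 4 rose and 8 fell, shares of 9.1% and 18.2%, against 15.7% and 22.1% of all tested genes. The largest change was in EIF2AK2, which encodes PKR, an interferon-induced kinase that phosphorylates eIF2 alpha on sensing double-stranded RNA. EIF2AK2 stood at 36.5, 32.0 and 23.9 FPKM with TAZ, against 3.35, 2.78 and 4.26 FPKM in controls (8.89 times, log2 fold change 2.82, SE 0.15, adjusted p = 8.71e-09). EIF2AK3 (PERK, the kinase of endoplasmic reticulum stress) rose to 11.5 ± 0.901 FPKM with TAZ, against 8.58 ± 0.867 FPKM in controls (adjusted p = 0.0103). EIF2AK4 (GCN2, the kinase of amino acid shortage) fell to 9.50 ± 0.906 FPKM, against 12.5 ± 1.83 FPKM in controls (adjusted p = 0.0259), a call lost without TAZ replicate 2 or 3 or control replicate 1 or 3 (adjusted p = 0.0644 to 0.0923). PPP1R15A, which brings a phosphatase to eIF2 alpha, did not pass, at 25.8 ± 4.43 and 23.2 ± 4.11 FPKM in TAZ and control libraries.

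The poly(A)-binding proteins, which join the message tail to EIF4G1, were lower. PABPC1 stood at 159.8, 145.3 and 147.1 FPKM with TAZ, against 191.2, 192.3 and 217.3 FPKM in controls (0.753 times, log2 fold change -0.41, SE 0.08, adjusted p = 0.00216). PABPC4 stood at 54.7, 61.2 and 58.8 FPKM with TAZ, against 93.2, 87.6 and 88.9 FPKM in controls (0.648 times, log2 fold change -0.62, SE 0.08, adjusted p = 5.51e-05). PAIP2, an inhibitor of these proteins, rose to 23.5 ± 5.07 FPKM with TAZ, against 16.8 ± 1.33 FPKM in controls (adjusted p = 0.0201), a call lost without TAZ replicate 1 or 3 or control replicate 1 (adjusted p = 0.0542 to 0.0823). Of the 5 genes on this list 1 was below the filter and 1 did not pass.

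Among the 8 enzymes that make hypusine on eIF5A or diphthamide on eEF2, 4 fell and 0 rose, where 22.1% of all tested genes fell and 15.7% rose. DOHH, which completes hypusine, was at 10.01 ± 1.33 FPKM with TAZ and 13.5 ± 1.01 FPKM in controls (adjusted p = 0.0104, and 0.0538 without TAZ replicate 1). DPH7 was at 25.1 ± 1.67 and 33.7 ± 3.04 FPKM (adjusted p = 0.00421) and DPH6 at 4.20 ± 0.366 and 5.89 ± 0.712 FPKM (adjusted p = 0.00976) in TAZ and control libraries. DPH3 was at 7.997 ± 0.649 and 9.87 ± 0.73 FPKM (adjusted p = 0.0433), a call lost without any single library other than control replicate 2 (adjusted p = 0.0614 to 0.166) and under median-ratio scaling (0.0842). None of the 8 cap and mTOR regulators passed, PDCD4, an inhibitor of eIF4A, among them at 7.47 ± 0.996 and 7.27 ± 0.122 FPKM in TAZ and control libraries. None of the 5 recycling and rescue genes tested passed. BZW1, a mimic of EIF5, was the only one of 6 scanning partners to rise (adjusted p = 0.0386), a call lost without TAZ replicate 1 or 3 or control replicate 1 or 2 (adjusted p = 0.0891 to 0.15). EEFSEC, the elongation factor for selenocysteine, fell to 0.694 times the control level (adjusted p = 0.00905, and 0.0533 with no filter on low values).

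Of 77 tested genes of cytosolic ribosomal proteins and their close relatives, 44 fell (57.1%, against 22.1% of all tested genes) and 0 rose. Their median log2 fold change was -0.28. Most of them stood above 100 FPKM, and of all genes at 100 FPKM or more 39.0% fell, with a median of -0.18. RPL22, of the large subunit, stood at 307.8, 320.4 and 364.8 FPKM with TAZ, against 413.3, 522.7 and 427.2 FPKM in controls (0.728 times, adjusted p = 0.00399). The number that fell was 15 without TAZ replicate 1, 23 without TAZ replicate 2, 22 without control replicate 2 and 16 under median-ratio scaling. Under quantile normalization 29 fell and 2 rose.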

How the data were processed

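The authors deposited FPKM values in 1 table for each group, with a column per library, per the file headers. The submitters' processing notes name fastp (read trimming), HISAT2 (alignment) and HTSeq (counting), with no versions. The sources used here give no genome build, strand setting or rule for multi-mapping reads, and no coordinates are printed. Each table had 16285 rows, and 23 whose symbol had turned into a date were left out. All 59 member symbols matched RefSeq's goat genes (assembly ARS1.2, used for names only).

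Library totals, gene lengths and fragment numbers were recovered from the steps of the low FPKM values, in steps of 0.5 fragments. Totals were sought in a limited range only. All totals and fragment numbers may thus be too low by the same factor. A length came out for 99.99% of rows above 0, and the fragments so recovered made up 99.67% to 99.71% of the totals. For genes of few fragments a length can come out as a part of the true one. Genes at 1 FPKM or more in at least 3 libraries were kept. limma 3.58.1 in R 4.3.3 (moderated test with a mean-variance trend) compared log2(FPKM + 1), two-sided, at an adjusted p of 0.05. The fit was tested on simulated data. Paralog shares were compared by exact permutation. With 3 libraries a group no search for outlying ones was made, and no pair of libraries in a group agreed within sampling noise (chi-square per degree of freedom of 9.51 or more).

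The members, the lists of partner genes and the markers were chosen with earlier results of these data known. Values for every library were given for EEF1A1, EEF1A2, EEF2, EIF4E, EIF4A1, EIF4G1, EIF4EBP1, EIF2S1, EIF5A, ETF1 and GSPT1 whatever their p, and for up to 3 called members with the lowest adjusted p of each role. Partner genes were named by lowest adjusted p, up to 4 a list, and PDCD4, EIF2AK2, PABPC1 and PPP1R15A whatever theirs. ABCF1, EIF3C and some markers were not analysed here. Alternatives were other pseudocounts (0.1 and 0.5), filters, scalings, no trend, a replicate block, leaving out each library, and limma's voom on the recovered fragments.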

Additional observations from a re-analysis of the deposited data

How the results depend on the processing

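Over all 10750 genes 1693 rose and 2381 fell, and a share of 41.6% of the called genes was higher. Median-ratio scaling gave 2035 that rose and 1778 that fell (53.4% higher), and shifted the median of all genes by less than 0.1 on the log2 scale. Leaving out 1 library gave 1247 to 1874 that rose and 1733 to 2392 that fell. Of the members, 15 (25.4%) fell with all libraries and 6 (10.2%) under median-ratio scaling. With 1 library left out 7 to 14 members fell (11.9% to 23.7%), fewest without TAZ replicate 1. The 2 that rose were found again in each of these settings, and 1 rose with the filter at a mean of 5 FPKM, which removed EIF4E3. With the replicate block 7 members fell (11.9%, against 18.3% of all tested genes) and 2 rose. Libraries with the same number did not deviate together (correlations of -0.436, -0.112 and -0.403 across genes for numbers 1, 2 and 3, and no library correlated best with its own number). Across unlike numbers the deviations correlated at 0.691 for TAZ 1 with control 3, 0.534 for TAZ 2 with control 1 and 0.552 for TAZ 3 with control 2, and no fit used these matches, which no label gives. So the numbers were not taken as pairs and a call lost under the block is not read as a weaker effect. Of the partner genes other than ribosomal proteins, 4 rose and 8 fell. With no filter 2 rose and 5 fell, and with 1 library left out 2 to 5 rose and 6 to 8 fell. Of the ribosomal protein genes 44 fell and 0 rose. With no filter 15 fell, under median-ratio scaling 16, and under quantile normalization 29 with 2 that rose. Leaving out 1 library gave 15 to 48 that fell and 0 that rose. Of all tested genes 14.3% fell with no filter, 16.6% under median-ratio scaling and 23.2% under quantile normalization. With 1 library left out 16.4% to 22.6% of them fell. The cause of these differences was not tested. The EEF1A2 share differed by -3.34 percentage points, and by -3.45 to -3.23 with 1 library left out. As a share of fragments, which count the longer EEF1A1 more, it differed by -1.41. Within replicate numbers the mean difference is the same by construction, so the paired exact test (p = 0.25, the smallest possible) is no further check. Of 367 further values for WWTR1 and 22 members given with every library, 315 kept their direction and side of the threshold, 47 lost the call and 2 gained one. The other 3 changed sign, each in a gene that did not pass and each without control replicate 2, so that with 1 library left out the log2 fold change ran from -0.0168 to 0.106 for EIF4E, from -0.223 to 0.0175 for EIF4EBP1 and from -0.0275 to 0.177 for ETF1. Low members such as EIF4EBP3 limit what can be seen at this depth, since they rest on as few as 35.5 fragments in a library.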
